A study of Drosophila melanogaster with 11 samples.

Results

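The odorant binding protein genes of the fruit fly were followed in the third antennal segment of wild-type flies and of flies without the microRNA gene mir-284, at 2 adult ages. The members are all rows of the count table whose gene name begins with Obp and a digit, 51 of 16727 rows. The row lush, which encodes the binding protein Obp76a, carries another name and is no member. Of the 51 rows, 46 had counts in at least 1 of the 11 libraries and 38 passed the filter on low counts that came before testing. They lie on chromosome arms 2R (29 rows), 3R (12), X (6), 2L (2) and 3L (2).

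Odorant binding proteins are small secreted proteins that hold hydrophobic molecules in a pocket braced by disulfide bonds between conserved cysteines. In the antenna the support cells of the sensilla, not the neurons, release them into the lymph around the dendrites, where they are thought to carry, buffer or clear odorants and pheromones. Other members of the family act in taste bristles, fat body, glia and the male reproductive tract, so a member in the table need not be an olfactory protein.

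All flies carried the w1118 background. The KO 25 d and KO 3 d groups had in addition a knockout of mir-284, a line outcrossed 7 times to w1118, and were 25 d and 3 d past eclosion. The WT 25 d and WT 3 d groups were w1118 flies of the same ages. The KO 25 d group had 2 libraries and every other group 3, described as biological replicates, and the study addressed how the antennal transcriptome depends on mir-284 during ageing. The sources used here do not give the sex of the flies, the number of flies per library, or whether the knockout came from 1 founder. Per the labels' protocols, DNase-treated total RNA was polyA-selected and made into directional libraries. Because bulk RNA was measured, fewer cells of a type and less RNA per cell cannot be told apart.

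The libraries held 24619699 to 55485825 counts. Levels are given as CPM, the counts of a gene relative to the library total, after TMM scaling, which adjusts each library for its composition, and comparisons between genes use CPM per kilobase of exon. The mir-284 row held 0 counts in all 11 libraries, so it does not check the genotype labels. The odorant receptor subunit gene Orco, a marker of olfactory neurons, had 3724 and 2107 CPM at KO 25 d, 1576 to 2545 CPM at KO 3 d, 2163 to 2424 CPM at WT 25 d and 700.0 to 2585 CPM at WT 3 d. Markers of neighbouring tissue were present as well. Over the 11 libraries the summed level of 15 muscle markers was 435 to 2669 CPM, of 13 photoreceptor markers 880 to 9336 CPM (ninaA was at 0 throughout), of 7 markers of Johnston's organ 461 to 1208 CPM and of 8 hemocyte markers 291 to 519 CPM. The Johnston's organ sum was 801 to 1208 CPM at KO 25 d and 461 to 518 CPM at WT 25 d. At 3 d it was 786 to 963 CPM in KO and 559 to 912 CPM in WT. Most of this sum was Dhc93AB, at 603 to 738 CPM in KO and 352 to 617 CPM in WT at 3 d. Gene by gene, 3 of the 7 had a higher and 4 a lower estimate in KO at 3 d. At 25 d 6 had a higher and 1 a lower estimate.

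Among the libraries KO 25 d replicate 1 differed from the rest. In a principal component analysis of all genes it scored 163 on the leading axis (37.7% of the variance), where the 10 others scored -47.6 to 13.3. It had counts in 10447 genes, against 11801 to 13682 elsewhere, and in 30 Obp rows, against 36 to 43. It was the highest library for 10 of the 10 most abundant Obp genes and for 17 of the 38 tested, as it was for 27.2% of all tested genes. The sum of 8 markers of the olfactory segment was 52542 CPM in it, against 8895 to 24905 CPM in the 10 others. Os-C (23502 CPM), a10 (13476 CPM) and a5 (7444 CPM) made up most of that sum. They, lush and Orco were highest in this library. Ir8a (66.9 CPM), Snmp1 (843 CPM) and Ir25a (370 CPM) lay within the range of the others. At the same time 7 Obp genes with counts in every other library (Obp50e, Obp56c, Obp58c, Obp73a, Obp83cd, Obp83ef and Obp83g) were at 0 in KO 25 d replicate 1, 7 of 33, against 8.8% of all such genes. The table holds 3 columns named as KO 25 d for 2 samples. The 2 used here were matched by replicate number, and every KO 25 d value rests on that match. WT 3 d replicate 3 and KO 3 d replicate 3 scored 80.1 and 69.4 on the second axis, against -37.2 to 10.7 in the others, and results are also given without all 3 of these libraries, called below the outlying libraries. Without these 3, as without either KO 25 d library, the KO 25 d group is a single library that is assumed to vary like the other groups.

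A few genes carried nearly all Obp transcripts. Obp19d alone held 36.5% to 60.4% of the counts of the family in a library, Obp19d, Obp83a and Obp83b together 73.7% to 88.0%, and the 8 most abundant members 97.3% to 99.1%. The whole family took up 15.95% and 4.13% of all counts in the KO 25 d libraries, 5.60% to 7.02% at KO 3 d, 4.30% to 5.05% at WT 25 d and 3.63% to 4.52% at WT 3 d. The KO 3 d shares lay above every WT share. Of the KO 25 d shares, that of replicate 1 lay above all others and that of replicate 2 among the WT shares.

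**Figure D1:**
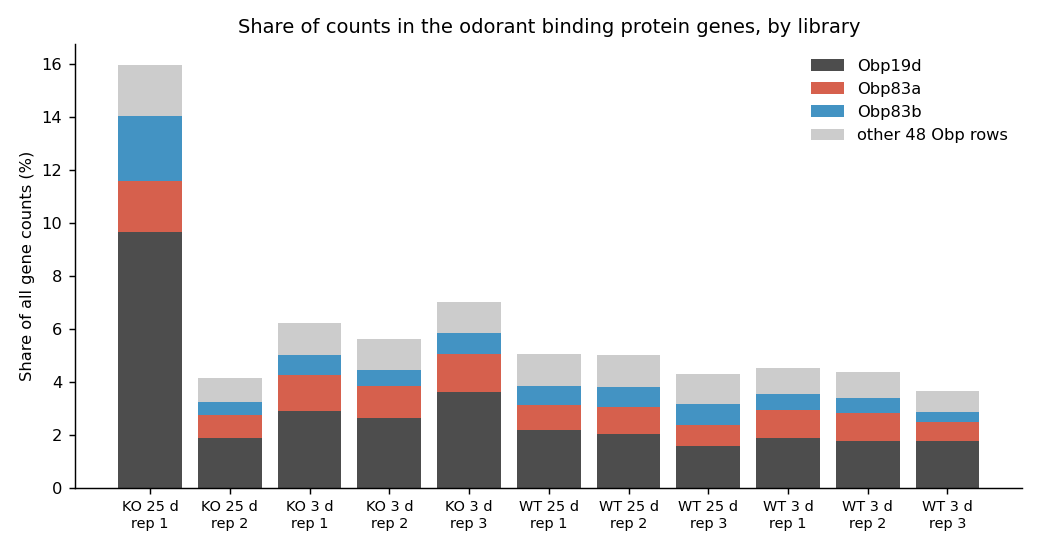
Bars give the percentage of all gene counts that fell in the 51 Obp rows in each of the 11 libraries, split into Obp19d, Obp83a, Obp83b and the other rows. KO 25 d replicate 1 reaches 15.95%, and the other libraries lie between 3.63% and 7.02%.

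By the mean of the 4 groups, 8 members were at 1000 CPM or more, 2 between 100 and 1000, 10 between 10 and 100, 10 between 1 and 10, and 21 below 1 CPM, of which 5 had no counts. Per kilobase of exon, Obp19d was the most abundant gene of the whole table, at 32580 CPM per kb, Obp83b the second at 18576 and Obp83a the fourth at 12419. Obp28a came ninth at 6625 CPM per kb and Obp69a 11th at 4037. Obp19a (2770 CPM per kb), Obp56d (2712), Obp59a (1107) and Obp57c (808) followed at ranks 20, 21, 67 and 104. With KO 25 d replicate 1 left out of its group mean, Obp19d stood at 18953 CPM per kb and Obp83b at 11340, still first and second, and Obp83a was at 9958, rank 5. Not every step of this order held within each library: Obp19d was above Obp83b in 10 of 11 libraries, Obp83b above Obp83a in 10, Obp28a above Obp69a, Obp69a above Obp19a and Obp59a above Obp57c in 9 each, and Obp19a above Obp56d in 7.

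**Figure D2:**
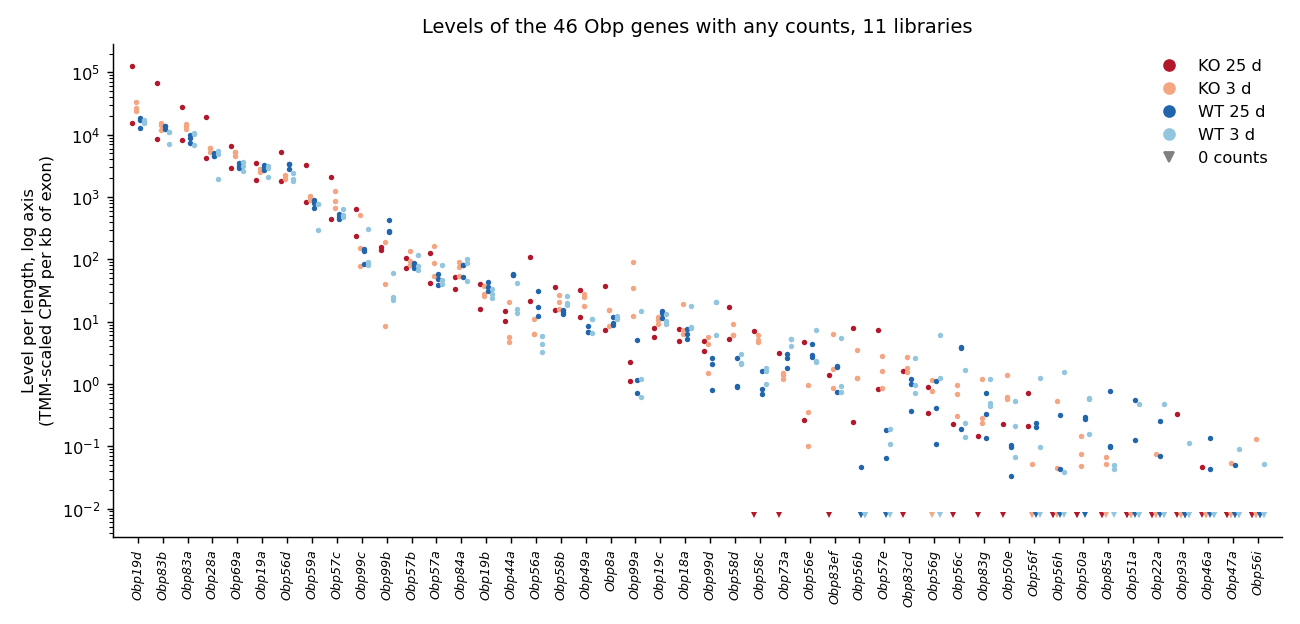
Each point is the TMM-scaled CPM per kilobase of exon (log axis) of 1 Obp gene in 1 library, for the 46 genes with any counts, coloured by group; triangles mark libraries with 0 counts. Levels run from Obp19d, at a mean of 32580, down to genes seen in 2 to 4 libraries.

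Members of 1 gene cluster differed widely in level. In dm6 coordinates, Obp19a, Obp19b, Obp19c and Obp19d lie within 5236 bases of the X chromosome (20415744 to 20420979), yet ranged from 10.4 CPM per kb for Obp19c to 32580 for Obp19d. The cluster of Obp56a to Obp56f on 2R (19697723 to 19713976) ran from 0.270 CPM per kb for Obp56f to 2712 for Obp56d. Obp59a shares a stretch of 2R (22702695 to 22707772) with Obp58b, Obp58c and Obp58d, which had 1107 CPM per kb against 20.6, 2.85 and 5.54. Obp83a and Obp83b, adjacent on 3R (5972155 to 5976817), were both among the most abundant genes of the antenna.

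Obp19d (X, 20419613 to 20420979), found widely over the antenna, had 137246 and 17216 CPM in the KO 25 d libraries and 29181, 26113 and 36852 CPM in the KO 3 d libraries. In WT it had 20325, 19030.2 and 14225 CPM at 25 d and 18698, 17478 and 16849 CPM at 3 d. All KO 3 d libraries lay above all WT libraries, and KO 25 d replicate 2 lay among the WT libraries. The log2 fold change of KO over WT was 0.80 ± 0.57 (SE) at 3 d, with an adjusted p of 0.708. At 25 d it was 2.11 ± 0.62 with an adjusted p of 0.121, and -0.058 without KO 25 d replicate 1.

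Obp83a and Obp83b, known as OS-F and OS-E, occur in trichoid and intermediate sensilla and shape how fast odour responses end. Obp83a had 27525 and 8113 CPM at KO 25 d and 13616, 11988 and 14806 CPM at KO 3 d, against 8675, 9605 and 7236 CPM at WT 25 d and 10677, 10253 and 6624 CPM at WT 3 d. Obp83b had 35057 and 4490.4 CPM at KO 25 d and 7522, 6325 and 8148 CPM at KO 3 d, against 6408, 7200.0 and 7249.8 CPM at WT 25 d and 5938, 5884 and 3701 CPM at WT 3 d. For both genes the KO 3 d libraries lay above the WT 3 d libraries, and KO 25 d replicate 1 lay above all WT libraries. KO 25 d replicate 2 lay among the WT 25 d libraries for Obp83a and below them for Obp83b. At 3 d the log2 fold change of KO over WT was 0.55 ± 0.40 (SE) for Obp83a (adjusted p = 0.714) and 0.50 ± 0.55 for Obp83b (adjusted p = 0.835). Obp83b at 25 d stood at 1.51 ± 0.61 (adjusted p = 0.208) on the log2 scale with all libraries and at -0.64 without KO 25 d replicate 1.

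The ratio within this pair was higher in the WT 25 d libraries than in the WT 3 d libraries. Per kilobase, the ratio of Obp83b to Obp83a was 1.38, 1.4 and 1.87 in the WT 25 d libraries, against 1.04, 1.07 and 1.04 in the WT 3 d libraries, with no overlap. It was 2.38 and 1.03 at KO 25 d, against 1.03, 0.99 and 1.03 at KO 3 d. In WT an exact two-sided permutation test of the ratio gave p = 0.1, the smallest that 3 libraries against 3 allow. Groups that do not overlap always give this p, so the test adds nothing to the separation.

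Obp28a is a protein of basiconic sensilla with a part in responses to floral odours. It had 11232 and 2458 CPM at KO 25 d and 3551, 3473 and 3066 CPM at KO 3 d, against 2881, 2598 and 2594 CPM at WT 25 d and 3101, 2803 and 1113 CPM at WT 3 d. KO and WT overlapped at both ages. The log2 fold change of KO over WT at 25 d was 1.35 ± 0.55 (SE, adjusted p = 0.21) with all libraries and -0.14 without KO 25 d replicate 1.

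Obp69a, known for tuning social behaviour to a male pheromone, had 3624 and 1606 CPM at KO 25 d and 2927, 2454 and 2918 CPM at KO 3 d, against 1608, 1924 and 1693 CPM at WT 25 d and 1686, 1978 and 1419 CPM at WT 3 d. The KO 3 d libraries lay above all WT libraries (log2 fold change at 3 d 0.71 ± 0.28, SE, adjusted p = 0.376). Its exons overlap CG32104 on the other strand, and strand was ignored in counting. CG32104 itself was at 70.9 to 175 CPM.

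Obp59a, required for sensing humidity, had 3275 and 854 CPM at KO 25 d and 1066, 899 and 997 CPM at KO 3 d, against 818, 896 and 684 CPM at WT 25 d and 795, 780.0 and 299 CPM at WT 3 d. The 3 d groups did not overlap, but the difference did not pass the test (log2 fold change 0.66 ± 0.46, SE, adjusted p = 0.702). Obp59a overlaps CG30259 on the other strand, which was at 5.90 to 14 CPM.

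Obp57c had 1176 and 250.1 CPM at KO 25 d and 484, 368 and 699 CPM at KO 3 d, against 262, 298 and 243 CPM at WT 25 d and 269, 284.04 and 352 CPM at WT 3 d. Its 3 d groups did not overlap either (log2 fold change 0.78 ± 0.45, SE, adjusted p = 0.608). Obp99c had 433 and 159 CPM at KO 25 d and 52.8, 100.4 and 345 CPM at KO 3 d, against 90.4, 97.7 and 55.4 CPM at WT 25 d and 61.2, 53.6 and 207 CPM at WT 3 d. In both 3 d groups replicate 3 held its highest value. Its exons overlap Gycalpha99B on the other strand, which was at 47.1 to 82.2 CPM.

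Over the 11 libraries Obp19a ranged 1.92-fold and Obp56d 2.90-fold. Obp19a had 2286 and 1189.5 CPM at KO 25 d and 1813, 1769 and 1602 CPM at KO 3 d, against 2075, 1721 and 1949 CPM at WT 25 d and 2018, 1878 and 1337 CPM at WT 3 d. Obp56d had 4814 and 1662 CPM at KO 25 d and 1820.1, 2075 and 1829.8 CPM at KO 3 d, against 3144, 3114 and 2599 CPM at WT 25 d and 1821, 1683 and 2209 CPM at WT 3 d. In WT all 25 d libraries lay above all 3 d libraries for Obp56d (log2 fold change of 25 d over 3 d 0.63 ± 0.33, SE, adjusted p = 0.702). The other tools did call some of the 10 most abundant genes with all libraries. For KO over WT at 25 d DESeq2 called Obp19d (adjusted p = 0.00505) and Obp57c (0.0446), where it called 9.08% of all genes. In KO 25 d replicate 2 both genes lay within the range of the WT 25 d libraries. Averaged over ages it called Obp19d, Obp57c, Obp59a, Obp69a and Obp83a (13.1% of all genes). All these were higher in KO. Limma voom called Obp19d, Obp57c and Obp69a higher in KO at 3 d (20% of all genes). It called Obp56d higher at 25 d in WT (16.5%) and 0 Obp genes for KO over WT at 25 d.

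**Figure D3:**
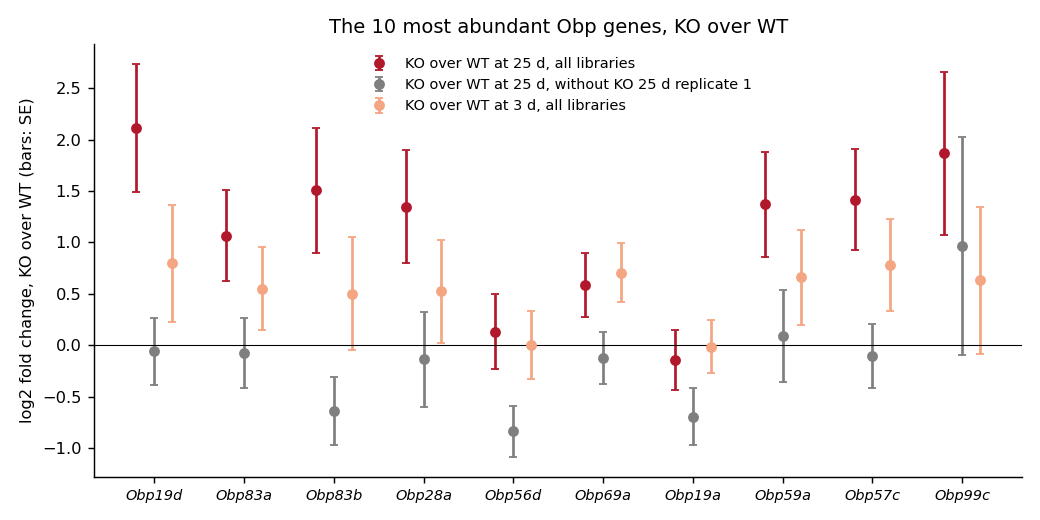
Points are log2 fold changes of KO over WT for the 10 most abundant Obp genes and bars are standard errors, at 25 d with all libraries, at 25 d without KO 25 d replicate 1, and at 3 d. Obp19d stands at 2.11 at 25 d with all libraries, at -0.058 without that library, and at 0.80 at 3 d; none of these 10 genes passed the edgeR test in any comparison with all libraries.

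The pheromone-binding protein gene lush, made by support cells of trichoid sensilla, had 3118 and 1239 CPM at KO 25 d and 1803, 1595 and 1690.1 CPM at KO 3 d, against 924, 1082 and 838 CPM at WT 25 d and 1350.2, 1393 and 920.3 CPM at WT 3 d. Every KO library at an age lay above every WT library of that age. The log2 fold change of KO over WT averaged over ages was 0.84 ± 0.23 (SE, adjusted p = 0.0651). Orco had 0.27 ± 0.33 (adjusted p = 0.628) on the same scale. Of 19 perireceptor and support-cell genes tested, lush included, 0 passed the edgeR test in any of the 7 comparisons made, where 0 to 8 had an unadjusted p under 0.05, DESeq2 called 0 to 4 and limma voom 0 to 7. Of 25 genes of olfactory receptor neurons 0 passed edgeR either, with 0 to 4 at an unadjusted p under 0.05, 0 to 1 called by DESeq2 and 0 to 5 by limma voom. Of 9 pan-neuronal genes 0 passed edgeR, with 0 to 2 at an unadjusted p under 0.05 and 0 to 1 called by either other tool. Of all genes, edgeR called 0.0253% to 5.32% in the 7 comparisons, and 6.12% to 23.5% had an unadjusted p under 0.05. DESeq2 called 0.362% to 13.1% and limma voom 0.00843% to 20%. The 7 support-cell genes called by limma voom were for age in WT (16.5% of all genes), and the 5 receptor neuron genes for KO at 3 d (20%).

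The secretory pathway that folds and exports such proteins was read from a list of 9 tested genes. All 9 had a higher estimate in KO averaged over ages, with a median log2 fold change of 0.18 against -0.02 over all genes. Sec61alpha, a subunit of the translocation channel of the endoplasmic reticulum, was the 1 gene that passed edgeR, 1 of 9 against 5.32% of all genes. DESeq2 called 1 of the 9 (13.1% of all genes) and limma voom 0 (3.08%), and at 3 d limma voom called 4 (20%). Sec61alpha had 227 and 199 CPM at KO 25 d and 222, 239 and 251 CPM at KO 3 d, against 155, 159 and 164 CPM at WT 25 d and 169, 160.5 and 198 CPM at WT 3 d (log2 fold change 0.43 ± 0.10, SE, adjusted p = 0.031). Its adjusted p was 0.0523 without KO 25 d replicate 1 and 0.0588 to 0.0992 without any 1 of WT 3 d replicates 1 and 2, the WT 25 d libraries or the KO 3 d libraries.

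Averaged over both ages, 5 of the 38 tested Obp genes differed between KO and WT, against 631 of 11867 genes (5.32%). Obp56b, Obp49a, Obp58d and Obp57e were higher in KO, and Obp44a was lower. Over all genes 2.91% were called higher and 2.41% lower. At an unadjusted p under 0.05 there were 17 Obp genes, and 23.5% of all genes. DESeq2 called 12 (13.1% of all genes) and limma voom 5 (3.08%). The median log2 fold change of the tested members was 0.31, against -0.02 over all genes. That of 8 markers of the olfactory segment (Orco, Ir8a, Ir25a, lush, Os-C, a5, a10 and Snmp1) was 0.52, with 7 higher in KO, and 0.24 without KO 25 d replicate 1. The longer lists did not share this shift with all libraries. The 19 perireceptor and support-cell genes had a median of -0.09 (9 higher, 10 lower in KO). The 25 genes of olfactory receptor neurons had a median of 0.04 (14 higher, 11 lower). That of the 15 muscle markers was -0.67, with 14 lower in KO and 3 of these called. The 7 markers of Johnston's organ had a median of 0.21, with 5 higher in KO and 1 of these called. The part of these markers in the shift of the members was not tested. The 5 called genes all lie on 2R, as 29 of the 51 members do, and none is among the 10 most abundant.

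The number of calls depended on which libraries were included. Without KO 25 d replicate 1, 6 of 41 Obp genes passed, against 627 of 12565 genes (4.99%). Obp57e and Obp44a were then no longer called, and Obp58c, Obp19c (-0.64) and Obp56e (-3.35) were called in addition. When KO 25 d replicate 2 was left out instead, which leaves replicate 1 as the KO 25 d group, 19 of 41 passed, against 4950 of 12643 genes (39.2%). The count was 3 when WT 3 d replicates 1 or 2, WT 25 d replicates 1 or 3, or replicate 1 of KO 3 d was left out. Without the 3 outlying libraries 11 of 38 passed, against 1975 of 12039 genes (16.4%).

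Obp56b (2R, 19698714 to 19699346) was at or near 0 in the WT libraries. It had 4.57 and 0.141 CPM at KO 25 d and 0.703, 0.703 and 1.97 CPM at KO 3 d, against 0.0267, 0 and 0 CPM at WT 25 d and 0 CPM in each WT 3 d library. At 3 d this was 109 counts in KO and 0 in WT, at least 42.4-fold higher in KO against a limit of 3 counts over the WT group. At 25 d it was 183 counts in KO and 1 in WT, a ratio of 256 with an exact 95% interval of 45.3 to 10156 that covers counting error only. Of the 183 counts, 178 were from KO 25 d replicate 1. The 5 from replicate 2 alone gave a ratio of 14.7 (1.64 to 694). All 5 KO libraries lay above all 6 WT libraries. The averaged difference passed with an adjusted p of 0.0101, and also when KO 25 d replicate 1 was left out (0.0195).

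Obp49a (2R, 12690059 to 12690955) is known from taste bristles, where it takes part in the suppression of sweet responses by bitter compounds. It had 24.7 and 9.28 CPM at KO 25 d and 19.5, 14 and 21.5 CPM at KO 3 d, against 6.62, 5.39 and 5.33 CPM at WT 25 d and 8.53, 8.58 and 5.08 CPM at WT 3 d. All 5 KO libraries lay above all 6 WT libraries. The averaged log2 fold change was 1.43 ± 0.26 (SE, adjusted p = 0.0102), and 0.99 (adjusted p = 0.019) without KO 25 d replicate 1.

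Obp58d (2R, 22706934 to 22707772), a member of the Plus-C class with additional cysteines, had 12.4 and 3.83 CPM at KO 25 d and 4.41, 4.44 and 6.77 CPM at KO 3 d. In WT it had 0.667, 1.91 and 0.662 CPM at 25 d and 1.51, 1.57 and 2.23 CPM at 3 d. The KO and WT libraries did not overlap. The averaged log2 fold change was 2.23 ± 0.41 (SE, adjusted p = 0.0107), and 1.68 (adjusted p = 0.0282) without KO 25 d replicate 1.

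Obp57e (2R, 20547816 to 20548291) is a gene of taste bristles linked to the behaviour of flies towards acids of a host plant. It had 2.98 and 0.338 CPM at KO 25 d and 1.16, 0.352 and 0.657 CPM at KO 3 d, against 0.0267, 0.0763 and 0 CPM at WT 25 d and 0.0451, 0.0773 and 0 CPM at WT 3 d. At 3 d there were 75 counts in KO and 5 in WT, a ratio of 17.5 (7.17 to 55.4), and at 25 d 128 and 4 counts, a ratio of 44.7 (17 to 167), with exact 95% intervals for counting error only. Of the 128 counts, 116 were from KO 25 d replicate 1, and the 12 from replicate 2 alone gave a ratio of 8.80 (2.67 to 37.4). The averaged difference had an adjusted p of 0.0209 and did not pass without KO 25 d replicate 1 (adjusted p = 0.0713).

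Since Obp49a and Obp57e are known from taste organs, 12 gustatory markers were summed beside them. They came to 51.6 to 54.7 CPM at KO 25 d and 41.9 to 59.9 CPM at KO 3 d, against 58.3 to 64.3 CPM at WT 25 d and 32.2 to 54.8 CPM at WT 3 d. The ranges of KO and WT overlapped at 3 d and lay lower in KO at 25 d. Gene by gene there was no such shift at 25 d. Of the 8 gustatory markers tested, 4 had a higher and 4 a lower estimate in KO, with a median log2 fold change of 0.04. Among them ppk25 was at 0 and 1.61 CPM at KO 25 d against 7.85 to 10.3 CPM at WT 25 d. Gr64f, the largest part of the sum, was at 37.4 and 40.1 CPM against 36.6 to 44.5 CPM. The part of taste tissue in the levels of Obp49a and Obp57e was not tested.

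Obp44a (2R, 8134170 to 8135315), which binds fatty acids and is made by glia, was lower in KO. It had 15.8 and 10.9 CPM at KO 25 d and 5.11, 6.20 and 22.0 CPM at KO 3 d, against 60.9, 60.6 and 62.8 CPM at WT 25 d and 14.9, 17.3 and 45.0 CPM at WT 3 d. The 25 d groups lay far apart and the 3 d groups overlapped through KO 3 d replicate 3, which lay above WT 3 d replicates 1 and 2. The averaged log2 fold change was -1.71 ± 0.43 (SE, adjusted p = 0.0485). It missed the threshold in 14 of 20 alternatives, among them the fit without KO 25 d replicate 1 (-1.86, adjusted p = 0.173), and without the 3 outlying libraries it was -2.00 with an adjusted p of 1.29e-06. The sum of 6 glial markers was 1629 to 2081 CPM at KO 25 d and 2213 to 2906 CPM at KO 3 d, against 2561 to 2765 CPM at WT 25 d and 2217 to 3076 CPM at WT 3 d. It too lay lower in KO at 25 d, but Gs2 made up most of it (1491 and 1807 CPM at KO 25 d, 2309 to 2480 CPM at WT 25 d). All 5 glial markers tested had a lower estimate in KO at 25 d. In KO 25 d replicate 2, however, repo (53.5 CPM) and moody (134 CPM) lay above all WT 25 d libraries. Those were at 44.5 to 49.2 and 104 to 128 CPM. Gs2, Eaat1 and wrapper lay below them in that library. The part of the glial markers in the result was not tested. Pabp2, which overlaps Obp44a on the other strand, was at 67.0 to 109.9 CPM with a log2 fold change of 0.20 (adjusted p = 0.218).

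**Figure D4:**
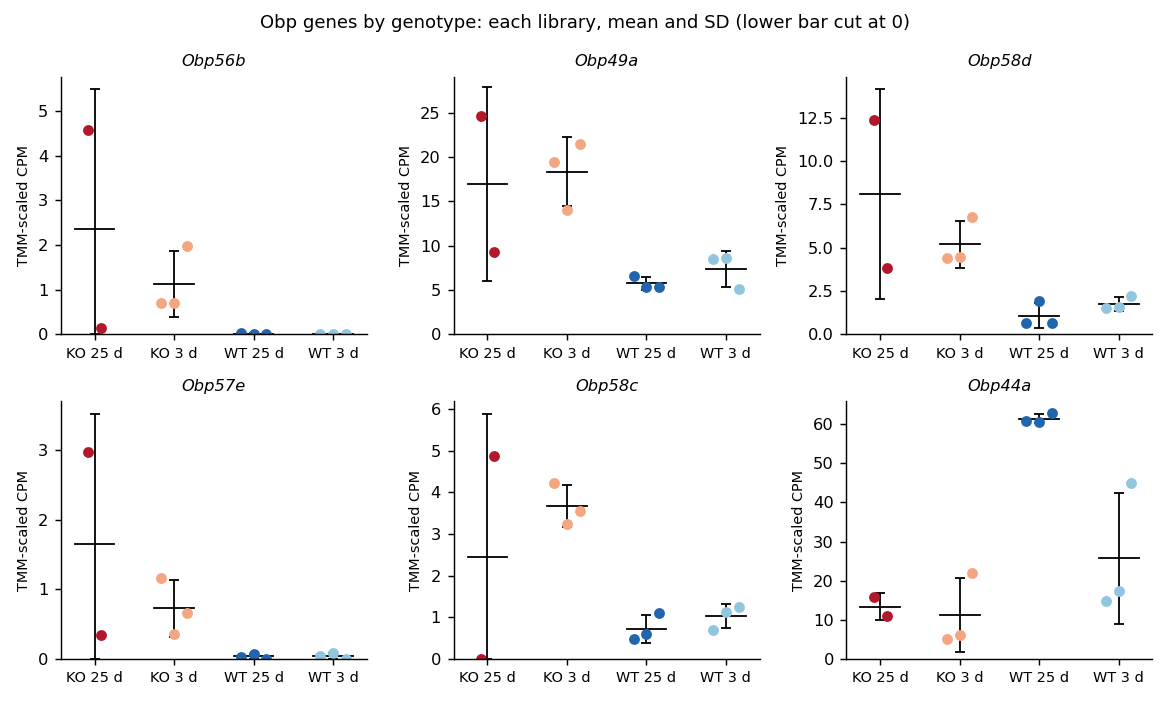
TMM-scaled CPM of 6 Obp genes in each library (points), with the group mean and SD, for KO 25 d (n = 2), KO 3 d, WT 25 d and WT 3 d (n = 3 each). Obp56b, Obp49a and Obp58d are higher in every KO library than in every WT library, Obp58c is at 0 in KO 25 d replicate 1, and Obp44a is at 60.6 to 62.8 CPM at WT 25 d.

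At 25 d, 1 of 38 Obp genes passed the test of KO over WT, against 206 of 11867 genes (1.74%). Obp58d was that gene, at 2.90 ± 0.61 (SE) on the log2 scale, higher in KO (adjusted p = 0.0432). The call was lost without KO 25 d replicate 1 (1.81, adjusted p = 0.275). Leaving out replicates 1 or 2 of WT 3 d, replicates 1 or 3 of WT 25 d, or any KO 3 d library also ended the call, with adjusted p-values of 0.0602 to 0.183. At an unadjusted p under 0.05 there were 17 Obp genes, and 20.6% of all genes. DESeq2 called 9 (9.08% of all genes) and limma voom 0 (0.135%). Obp49a followed with 1.55 ± 0.38 (adjusted p = 0.0752), Obp56b with an adjusted p of 0.0805, and Obp19c with -0.97 ± 0.25 (adjusted p = 0.0852). The median log2 fold change of the tested members was 0.33, against -0.04 over all genes.

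Without KO 25 d replicate 1, Obp58c was the 1 Obp gene to pass at 25 d (2.75, adjusted p = 0.0425), among 130 of 12565 genes (1.03%), and the median of the members was -0.14 against -0.03 over all genes. This rests on KO 25 d replicate 2 alone. With KO 25 d replicate 2 left out, 21 of 41 passed, against 40.3% of all genes. Without the 3 outlying libraries 8 of 38 passed, against 888 of 12039 genes (7.38%). Obp58c was then higher in KO, and Obp44a, Obp56d (-0.83), Obp19a (-0.68), Obp19c (-1.21), Obp83b (-0.63), Obp19b (-1.19) and Obp56e (-3.62) were lower, again with KO 25 d replicate 2 as the only library of its group.

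Obp19c had 7.73 and 5.61 CPM at KO 25 d and 10.3, 11.5 and 8.95 CPM at KO 3 d, against 14.4, 11.2 and 13.5 CPM at WT 25 d and 10.1, 9.10 and 13 CPM at WT 3 d. The 25 d groups did not overlap. Of the tested Obp genes it had the lowest biological coefficient of variation, 0.230, against a median of 0.468 over the Obp genes and 0.270 over all genes.

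At 3 d no Obp gene passed the edgeR test of KO over WT, 0 of 38 against 165 of 11867 genes (1.39%). At an unadjusted p under 0.05 there were 8, against 11% of all genes, and DESeq2 called 5 (4.75% of all genes) and limma voom 15 (20%). The median log2 fold change of the tested members was 0.41, against -0.01 over all genes, 0.49 over the 8 markers of the olfactory segment (7 higher in KO) and -1.04 over the 15 muscle markers (14 lower, 2 of these called). It was 0.04 over the 19 perireceptor and support-cell genes (10 higher, 9 lower). Over the 25 genes of olfactory receptor neurons it was 0.20 (18 higher, 7 lower). The olfactory markers summed to 20966 to 24905 CPM at KO 3 d and 8895 to 20324 CPM at WT 3 d, and the muscle markers to 645 to 1636 CPM at KO 3 d and 1342 to 2669 CPM at WT 3 d. As above, their part in the shift of the members was not tested. For 13 members every KO 3 d library lay above every WT 3 d library, and for 4 every one lay below, where 13.9% and 11.8% of all genes did so. By p the first were Obp56b (adjusted p = 0.0913) and Obp49a (log2 fold change 1.31 ± 0.35, SE, adjusted p = 0.125).

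The KO 25 d libraries are in neither of the groups compared at 3 d but enter the common estimate of spread. Without KO 25 d replicate 1, 4 of 41 Obp genes passed, as did 4 without KO 25 d replicate 2. These stand against 4.7% and 4.68% of all genes. Obp56b, Obp49a and Obp58c were higher in KO and Obp73a was lower. Without the 3 outlying libraries, 10 of 38 passed, against 1509 of 12039 genes (12.5%). On the log2 scale Obp56b, Obp58c (2.02), Obp49a (0.96), Obp57c (0.62), Obp19d (0.60) and Obp69a (0.55) were then higher in KO, with adjusted p-values of 0.0113 to 0.0343. Obp56e (-3.30), Obp99d (-2.03), Obp73a (-1.86) and Obp44a (-1.52) were lower, with adjusted p-values of 5.84e-05 to 0.0131.

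Obp58c and Obp73a were chosen after their values were seen, as members at 0 in KO 25 d replicate 1 that are called without it. Obp58c had 0 and 4.88 CPM at KO 25 d and 4.22, 3.25 and 3.56 CPM at KO 3 d, against 0.480, 0.585 and 1.10 CPM at WT 25 d and 0.700, 1.13 and 1.25 CPM at WT 3 d. All KO libraries but the 1 at 0 lay above all WT libraries. Its averaged log2 fold change was 1.80 ± 0.88 (SE, adjusted p = 0.247) with all libraries and 2.29 ± 0.33 (adjusted p = 0.00368) without KO 25 d replicate 1. Obp73a had 0 and 2.48 CPM at KO 25 d and 1.19, 1.08 and 0.933 CPM at KO 3 d, against 2.05, 1.42 and 2.35 CPM at WT 25 d and 4.15, 4.05 and 3.20 CPM at WT 3 d. The 3 d groups did not overlap, and the log2 fold change there was -1.83 with an adjusted p of 0.121 with all libraries and 0.0128 without KO 25 d replicate 1.

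With age, averaged over genotypes, 1 of 38 Obp genes passed the test, against 51 of 11867 genes (0.43%). Obp56a (2R, 19697723 to 19698508) had 60.4 and 11.8 CPM at KO 25 d against 3.52, 3.44 and 6.01 CPM at KO 3 d, and 16.7, 9.38 and 6.76 CPM at WT 25 d against 1.81, 2.37 and 3.20 CPM at WT 3 d. All 25 d libraries lay above all 3 d libraries. The log2 fold change of 25 d over 3 d was 2.61 ± 0.42 (SE, adjusted p = 0.0304), and 1.82 (adjusted p = 0.0422) without KO 25 d replicate 1, where 88 of 12565 genes (0.7%) were called. The call was lost when any of 8 other libraries was left out (adjusted p of 0.0571 to 0.0985). In the fit without KO 25 d replicate 2, 12 of 41 Obp genes passed, against 27.4% of all genes. DESeq2 called 4 of 38 (5.31% of all genes) and limma voom 1 (0.135%). The median log2 fold change of the members was -0.09, against -0.02 over all genes.

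Without the 3 outlying libraries, 10 of 38 Obp genes passed the averaged test of age, against 1091 of 12039 genes (9.06%). Obp56a (2.09), Obp99b (3.25) and Obp44a (1.45) were higher at 25 d. Obp99d (-2.05), Obp49a (-0.70) and 5 of the abundant members were lower, namely Obp83a (-0.47), Obp69a and Obp57c (-0.40 each), Obp28a (-0.32) and Obp19a (-0.30).

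Within either genotype no Obp gene passed the edgeR test of age. In WT this was 0 of 38, against 18 of 11867 genes (0.152%), with 4 Obp genes and 8.07% of all genes at an unadjusted p under 0.05. DESeq2 called 3 Obp genes (2.49% of all genes) and limma voom 8 (16.5%). The median log2 fold change was -0.18 over the members and -0.01 over all genes. In KO it was 0 of 38, against 5 of 11867 genes (0.0421%), with 4 Obp genes and 11.8% of all genes at an unadjusted p under 0.05. DESeq2 called 2 (2.36% of all genes) and limma voom 0 (0.00843%). The medians there were 0.04 over the members and -0.04 over all genes, and without KO 25 d replicate 1 they were -0.79 and -0.03. When KO 25 d replicate 2 was left out, 16 of 41 passed, against 32.3% of all genes. For Obp56a the log2 fold change of 25 d over 3 d was 3.06 ± 0.61 (SE, adjusted p = 0.152) in KO and 2.16 ± 0.56 (adjusted p = 0.211) in WT. Without KO 25 d replicate 1 it passed in WT (2.17, adjusted p = 0.0297), the 1 Obp gene to do so among 181 of 12565 genes (1.44%). Without KO 25 d replicate 2, 1 passed in WT as well, against 1.46% of all genes.

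Obp99b, a gene of the male fat body, had 85.3 and 93.8 CPM at KO 25 d against 24.1, 5.09 and 111 CPM at KO 3 d, and 167, 256 and 162 CPM at WT 25 d against 13.1, 15 and 35.3 CPM at WT 3 d. In WT the ages did not overlap (log2 fold change 3.21 ± 0.88, SE, adjusted p = 0.24), and in KO they did (0.94 ± 0.89, adjusted p = 0.671). The sum of 9 fat body and yolk genes was 1004 to 2608 CPM at KO 25 d, 2122 to 8872 CPM at KO 3 d, 180 to 1530 CPM at WT 25 d and 57.0 to 5379 CPM at WT 3 d. In the highest library, KO 3 d replicate 3, it was mostly the yolk genes Yp1, Yp2 and Yp3 (1888, 1821 and 4795 CPM). In WT 25 d replicate 2 it was mostly Lsp2 (148 of 269 CPM). The sum is therefore no gauge of the male fat body alone. The male dosage compensation RNAs roX1 and roX2 summed to 1278 to 2744 CPM at KO 25 d and 755 to 1244 CPM at KO 3 d, against 1992 to 3215 CPM at WT 25 d and 2468 to 3817 CPM at WT 3 d. The KO 3 d libraries lay below all others. Most of this sum was roX1, which edgeR called lower in KO at 3 d (log2 fold change -1.62, adjusted p = 0.0476). For roX2 alone every KO library (8.49 to 17.4 CPM) lay below every WT library (18.3 to 37.6 CPM). It was called lower in KO averaged over ages (-1.26, adjusted p = 0.0118). Whether either sum or roX2 bears on Obp99b was not tested.

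Obp99d, a neighbour of Obp99b on 3R, had 2.44 and 1.66 CPM at KO 25 d against 2.87, 2.22 and 0.760 CPM at KO 3 d, and 1.04, 0.407 and 1.32 CPM at WT 25 d against 10.3, 10.4 and 3.04 CPM at WT 3 d. The log2 fold change of 25 d over 3 d in WT was -3.10 ± 0.68 (SE, adjusted p = 0.126). At 3 d KO over WT was -2.02 ± 0.65 (adjusted p = 0.221).

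Obp99a differed widely between replicates. It had 0.693 and 1.38 CPM at KO 25 d against 7.47, 21.4 and 54.8 CPM at KO 3 d, and 3.12, 0.712 and 0.441 CPM at WT 25 d against 0.384, 0.722 and 9.10 CPM at WT 3 d. In KO the ages did not overlap (log2 fold change -4.75 ± 1.57, SE, adjusted p = 0.347).

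**Figure D5:**
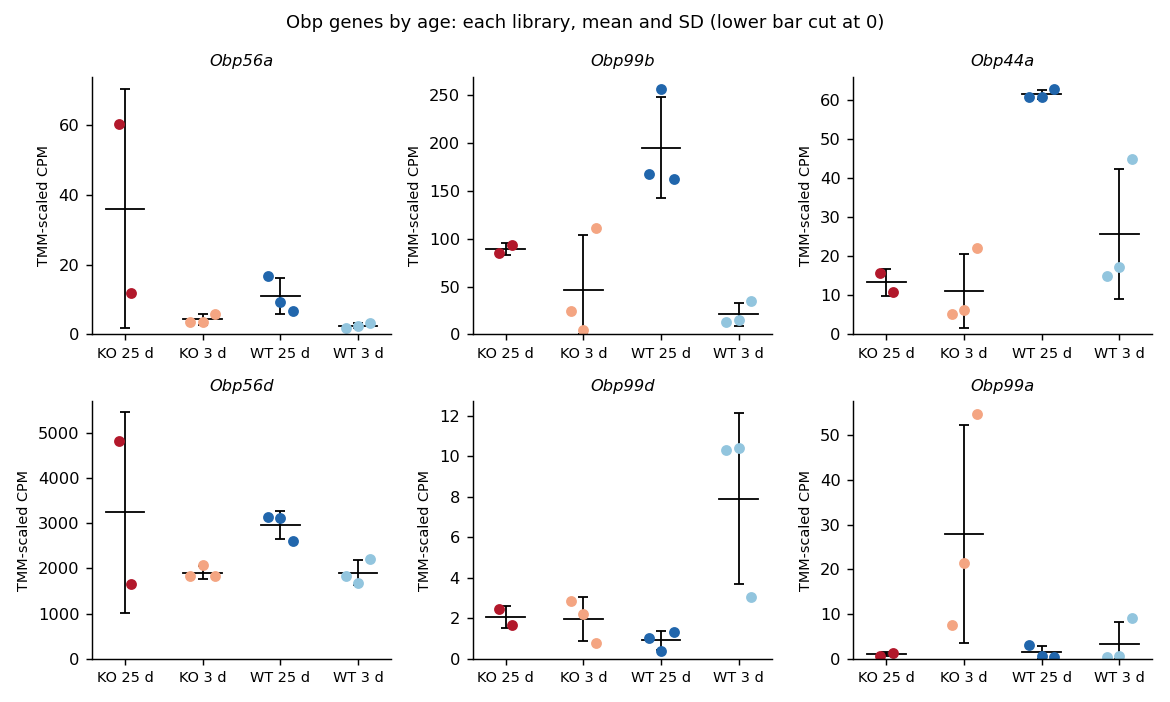
TMM-scaled CPM of 6 Obp genes in each library (points), with the group mean and SD, for KO 25 d (n = 2), KO 3 d, WT 25 d and WT 3 d (n = 3 each). Obp56a is higher in every 25 d library than in every 3 d library, and Obp99b is at 162 to 256 CPM at WT 25 d against 13.1 to 35.3 CPM at WT 3 d.

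The change with age was compared between the genotypes directly, and no Obp gene passed, 0 of 38 against 3 of 11867 genes (0.0253%). The edgeR test had 2 Obp genes and 6.12% of all genes at an unadjusted p under 0.05. DESeq2 and limma voom called 0 Obp genes, against 0.362% and 0.0169% of all genes. Leaving out KO 25 d replicate 2 gave 9 of 41, against 23.6% of all genes, and leaving out the 3 outlying libraries gave 1, against 0.723% of all genes. That gene was Obp56d, at -0.97 (adjusted p = 0.0381). The lowest p belonged to Obp99d, whose age change was higher in KO than in WT by 3.17 ± 0.95 (SE) on the log2 scale, and to Obp19c, at -0.90 ± 0.32, both with an adjusted p of 0.79. The third was Obp56c, at -4.42 ± 2.16 (adjusted p = 0.79). Obp56c had 0 and 0.226 CPM at KO 25 d against 0.298, 0.676 and 0.933 CPM at KO 3 d, and 3.79, 3.71 and 0.184 CPM at WT 25 d against 0.135, 0.232 and 1.63 CPM at WT 3 d.

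The remaining members were low or not tested. Obp57b, Obp84a and Obp57a had means of 74.1, 54.1 and 40.5 CPM over the groups and passed the edgeR test in no comparison with all libraries. Obp84a, a gene of coeloconic sensilla, overlaps CG10050 on the other strand. CG10050 was at 8.39 to 26.7 CPM and was itself called higher in KO averaged over ages (log2 fold change 1.07, edgeR adjusted p = 0.000495). Without the 3 outlying libraries the averaged log2 fold change of Obp84a was -0.85. Obp19b (20.0 CPM) and Obp58b (14.2 CPM) were also without a call by edgeR with all libraries, as were Obp8a, Obp18a, Obp83ef, Obp56e, Obp83cd, Obp56g, Obp83g, Obp50e, Obp50a and Obp56h, at means of 0.125 to 8.54 CPM. Among these, limma voom called Obp57a, Obp50e and Obp56e at 3 d and Obp19b with age in WT, and DESeq2 called Obp56e at 3 d (-3.12, adjusted p = 0.0439). Obp83cd and Obp83ef overlap each other on opposite strands, so their counts are uncertain, and Obp56e overlaps CR44509. The 8 members that had counts but did not pass the filter were Obp56f, Obp22a, Obp85a, Obp51a, Obp93a, Obp56i, Obp46a and Obp47a, at means of 0.143 CPM or less. Several of the low genes, among them Obp8a, Obp22a, Obp51a, Obp56e, Obp56f, Obp56g and Obp56i, encode seminal fluid proteins of the male. The sum of 8 accessory gland markers was 0.536 to 1.90 CPM at KO 25 d, 0.406 to 6.90 at KO 3 d, 0.508 to 2.90 at WT 25 d and 0.384 to 21.3 at WT 3 d.

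Obp47b, Obp50b, Obp50c, Obp50d and Obp57d had 0 counts in all 11 libraries. Depending on the library, a count of 0 allows a level of up to 0.0677 to 0.110 CPM, taken as 3 counts and covering counting error only. Obp50b and Obp50c have the same exons on the same strand in the gene models, and Obp57d shares exons with Cpr57A, which also held no counts, so a read there could not be assigned to 1 gene and these zeros do not show absence. Exons of Obp47b overlap CG7741 on the other strand, which was at 13.8 to 22.9 CPM. With strand ignored, reads in the shared stretch could not be assigned to Obp47b, so its limit does not cover that stretch.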

How the data were processed

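The deposited table gives raw counts. Per the file headers, the authors ran featureCounts 1.4.5-p1, summed exons by gene and ignored strand, using dm6 models. The submitters' processing notes also list FastQC and STAR 2.4.2a. Column names were tied to samples through genotype, age and number, and 1 of 12 library columns, a further KO 25 d replicate, was not used. The exon lengths per gene (another column of the table) gave CPM per kilobase.

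Tests used these counts in edgeR 4.0.16 (R 4.3.3): filterByExpr by group (11867 genes left), TMM scaling and the robust quasi-likelihood test on 1 model of 4 group means over 11 libraries. Calls were made where the Benjamini-Hochberg adjusted p, over all genes tested, was under 0.05. Every adjusted p comes from this test unless another tool is named. The 7 comparisons were KO over WT at each age and averaged, 25 d over 3 d in each genotype and averaged, and the difference of the age changes. A positive log2 fold change means higher in KO or at 25 d. Standard errors were derived from the F statistic. P-values weigh a difference of group means against the spread between these libraries. The ratio of Obp83b to Obp83a in WT was tested by exact permutation, a test added after its values were seen.

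Values in every library are given for the 10 most abundant members, every called member and the 3 of lowest p in each comparison; others shown were chosen after their values were seen. The members, lists and tests were chosen with earlier results of these data known. Alternatives were RLE and upper-quartile scaling, library sizes without the Obp rows, no filter, a stricter filter (at least 10 counts throughout 1 group, with its mean at 5 CPM or above), DESeq2 1.42.0, limma voom 3.58.1 with library quality weights, the replicate number as a block, and leaving out each library. A fit without the 3 outlying libraries was added after the data were seen. The script was tested on simulated data.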

Additional observations from a re-analysis of the deposited data

How the results depend on the processing

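The values here are counts of called genes, first the Obp members and then all genes, for KO over WT at 3 d, KO over WT at 25 d, KO over WT averaged, age in KO, age in WT, age averaged and the difference of the age changes. With all libraries they were 0, 1, 5, 0, 0, 1 and 0 Obp genes and 165, 206, 631, 5, 18, 51 and 3 genes. DESeq2 called 5, 9, 12, 2, 3, 4 and 0 Obp genes and 564, 1078, 1558, 280, 295, 630 and 43 genes. Limma voom called 15 Obp genes and 2376 genes for KO at 3 d, 0 and 16 for KO at 25 d, 365 genes for KO averaged, 1 gene for age in KO, 8 and 1958 for age in WT, and 16 genes for age averaged. Without the 3 outlying libraries, a choice made after seeing the data, the counts were 10, 8, 11, 3, 4, 10 and 1 Obp genes and 1509, 888, 1975, 209, 1099, 1091 and 87 genes. The stricter filter gave 2 Obp genes for KO averaged, where Obp56b and Obp57e were not tested, and 5 genes for the difference.

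Leaving out 1 library at a time gave 0 to 4, 0 to 21, 3 to 19, 0 to 16, 0 to 1, 0 to 12 and 0 to 9 Obp genes, and 64 to 592, 68 to 5090, 363 to 4950, 1 to 4084, 2 to 184, 6 to 3466 and 0 to 2987 genes. The highest counts at 25 d, in KO and averaged came without KO 25 d replicate 2, where the lone library left is assumed to vary like the other groups. The causes were not tested.

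Without KO 25 d replicate 1 the log2 fold change of KO over WT at 25 d was -0.058 for Obp19d, -0.64 for Obp83b and -0.14 for Obp28a, and without the 3 outlying libraries -0.049, -0.63 and -0.13, where all libraries gave 2.11, 1.51 and 1.35 and the fit without KO 25 d replicate 2 gave 2.94, 2.33 and 2.06. In the averaged comparison Obp56b kept its call in 19 of 19 alternatives in which it was tested, Obp49a and Obp58d in 20 of 20, Obp57e in 12 of 19 and Obp44a in 6 of 20. Obp56a kept its call with age in 11 of 20, and Obp58d at 25 d in 9 of 20. Upper-quartile scaling and library sizes without the Obp rows each split the calls for age in WT into 7 higher and 5 lower, where TMM gave 7 and 11. Upper-quartile scaling gave 21 higher and 25 lower for age averaged, where TMM gave 18 and 33. Without Obp19d the family's share of counts averaged 3.24% at KO 3 d, 2.85% at WT 25 d and 2.38% at WT 3 d.

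Replicate numbers were not used to pair the samples in the main fit. Of 15 pairs of libraries with the same number in different groups, 2 had deviations correlated above 0.1 (range -0.12 to 0.46). Both were WT 3 d with KO 3 d, for replicate 1 (0.41) and replicate 3 (0.46), while replicate 2 gave 0.03. WT 3 d replicate 2 and KO 3 d replicate 1, of unlike number, reached 0.50. Whether the 3 d libraries were handled in pairs was not tested. With the replicate number as a block, 0 Obp genes were called for KO at 25 d, 4 for KO averaged and 0 for age averaged, and 2 genes for age in KO and 20 for age averaged. Depth limits members under 1 CPM, whose counts per library reach single digits.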
